A study of Mus musculus with 12 samples.

Results

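The genes described here are 9 genes of fibrinolysis and coagulation that were measured in healing skin wounds of mice. They were chosen by name, with earlier results of these data known, and each was found once among the 55487 genes listed for every library. By role they are the plasminogen activators Plau and Plat, the urokinase receptor Plaur, the activator inhibitors Serpine2 and Serpinb2, the starter of coagulation F3, the anticoagulants Tfpi and Thbd, and the fibrin crosslinking enzyme F13a1. The wounds were made by punch biopsy on the backs of male C57BL/6JNarl mice aged 6 weeks, and each mouse carried 2 of them. The sham group (P-F127) received Pluronic F127 gel alone, once a day, and the CAP-treated wounds (CAP) received 10 µM capsaicin in the same gel. RNA from wounds excised together with surrounding tissue was sequenced at day 3 and day 6, with 3 libraries in each of the 4 groups, 12 in all. The sources used here do not say whether the libraries of a group came from different animals, so p values measure the spread between these libraries, which may be partly technical.

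A wound first clots. Tissue factor, the product of F3, binds factor VII and starts a cascade that ends in thrombin and fibrin, and factor XIIIa, made from F13a1, crosslinks the fibrin. Urokinase (Plau) and tissue plasminogen activator (Plat) later turn plasminogen into plasmin, which dissolves the clot and opens a way for migrating keratinocytes, while serpins restrain both activators and tissue factor pathway inhibitor (Tfpi) and thrombomodulin (Thbd) restrain the cascade.

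Levels are in TPM, a share of a library's transcripts corrected for gene length, so levels of different genes can be set side by side. TPM does not hold the sequencing depth, and the precision of each value therefore rests on 3 libraries. Each library had between 18533 and 19325 genes at 0.3 TPM or more. The 9 keratinocyte markers and the 7 fibroblast markers examined were above the floor value of 0.0001 TPM in all 12 libraries. The CAP Day 6 replicate 2 library stood apart in its most abundant genes and its marker sums. Its 10 most abundant genes held 14.1% of its TPM against 8.27% to 11.3% in the others. Its keratinocyte markers summed to 97485 TPM and its endothelial markers to 92.8 TPM, the highest and the lowest sums of any library. The lowest mean correlation with its own group was that of CAP Day 6 replicate 3 (r = 0.9612), followed by CAP Day 6 replicate 2 (0.9617). CAP Day 6 replicate 3 reached r = 0.9732 with a library of another group.

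All 9 genes were at percentile 82.3 or higher of the 55487 listed genes in every library. Of these listed genes, 30817 to 32274 were at the floor value in each library. The percentiles therefore do not rank the 9 among expressed genes only. The lowest level of any of the 9 was that of Tfpi, 10.9 TPM in P-F127 Day 3 replicate 2. Serpinb2 had the highest group mean of the 9 in all 4 groups and F13a1 the next, although their libraries overlapped in every group but CAP Day 6. Serpine2 and Tfpi were the lowest pair in all 4 groups, and their libraries overlapped in each of them. The group means of the other genes ranged from 40.9 TPM (Plaur, CAP Day 6) to 159 TPM (F3, P-F127 Day 6).

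The genes lie at separate loci. On GRCm38, Plau is at chr14:20836660-20843385 and Plat at chr8:22757727-22782844, both on the + strand. Plaur is at chr7:24462484-24475968 (+) and F3 at chr3:121723537-121735048 (+). Serpine2 (chr1:79794197-79861180, - strand) and Serpinb2 (chr1:107511423-107535478, + strand) share chromosome 1, and Tfpi (chr2:84432855-84476775) and Thbd (chr2:148404466-148408188) share chromosome 2, both on the - strand. F13a1 covers 183067 bases at chr13:36867178-37050244 (-). All 9 are annotated as protein coding. The 3′ part of Serpinb2 overlaps Serpinb10 on the same strand, which was listed at 8.65 to 38.2 TPM, so some reads could have been assigned to either gene. F13a1 overlaps 2 antisense genes, Gm49144 and Gm30489, both listed at the floor value in all 12 libraries.

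Promoter sequence is shown for 4 of the genes that the results turn on: Serpine2, the gene called changed between days, Plaur, whose CAP difference was above 0 at day 3 and below 0 at day 6, F3, which starts the cascade, and Serpinb2, the most abundant. The windows are the bases upstream of the transcription start in RefSeq on GRCm38.p6, written 5′ to 3′ on the gene's own strand. Capitals mark matches on either strand to the motifs searched, a GC box (GGGCGG), the CRE motif (TGACGTCA), a TATA box (TATAAA), the NF-kB motif, the AP-1 motif (TGACTCA) and the CCAAT box named by its letters, and neighbouring matches may share a base. Of all 32851 RefSeq promoter windows of 250 bases, 12.4% held the TATA box, 32.7% the GC box, 33.8% the CCAAT box, 4.46% the AP-1 motif, 1.55% the CRE motif and 7.25% the NF-kB motif.
Serpine2 promoter, chr1:79858697-79858915 (-): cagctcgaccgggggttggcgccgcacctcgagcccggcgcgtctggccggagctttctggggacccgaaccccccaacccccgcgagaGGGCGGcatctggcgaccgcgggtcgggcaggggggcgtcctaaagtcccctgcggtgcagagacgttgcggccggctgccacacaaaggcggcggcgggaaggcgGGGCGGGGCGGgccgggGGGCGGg
Plaur promoter, chr7:24462233-24462482 (+): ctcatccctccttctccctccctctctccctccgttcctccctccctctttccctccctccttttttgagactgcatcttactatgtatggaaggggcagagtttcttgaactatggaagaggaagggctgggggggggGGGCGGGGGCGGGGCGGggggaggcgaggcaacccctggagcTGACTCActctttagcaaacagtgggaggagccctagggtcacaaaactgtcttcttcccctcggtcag
F3 promoter, chr3:121723287-121723536 (+): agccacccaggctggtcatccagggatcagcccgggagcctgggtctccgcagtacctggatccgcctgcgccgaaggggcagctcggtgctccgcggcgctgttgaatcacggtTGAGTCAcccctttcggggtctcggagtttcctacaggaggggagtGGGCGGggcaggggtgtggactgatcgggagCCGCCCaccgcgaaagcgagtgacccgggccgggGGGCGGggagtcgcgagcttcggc
Serpinb2 promoter, chr1:107511173-107511422 (+): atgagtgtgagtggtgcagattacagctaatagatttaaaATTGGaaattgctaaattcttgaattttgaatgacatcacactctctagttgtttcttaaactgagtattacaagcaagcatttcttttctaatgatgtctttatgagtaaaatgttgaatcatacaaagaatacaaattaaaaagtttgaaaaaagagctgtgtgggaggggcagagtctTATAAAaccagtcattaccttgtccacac
The Serpine2 window begins 250 bases before the start, leaves out the 31 bases nearest to it because they are annotated as untranslated exon, and lies within the gene's longer annotated span. It holds 4 GC boxes. Plaur and F3 each have 3 GC boxes and 1 AP-1 motif, at 69 to 63 bases before the start in Plaur and 135 to 129 in F3. Serpinb2 has a TATA box at 29 to 24 bases before the start and a CCAAT box further upstream, and no GC box in the window. A match is a run of letters and does not show that a factor binds there. Of the 9 genes, 6 were matched in the promoter table.

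The plasminogen activators were lower in CAP-treated wounds at both days. For Plau, the sham libraries read 69.6, 66.5 and 67.5 TPM at day 3 and 75.0, 65.1 and 79.7 TPM at day 6. The CAP libraries read 56.3, 52.5 and 61.2 TPM at day 3 and 60.5, 47.9 and 61.3 TPM at day 6. Each of the 6 sham libraries (70.6 ± 5.63 TPM, SD, n = 6) was therefore above each of the 6 CAP libraries (56.6 ± 5.49 TPM). The log2 difference between treatments, averaged over both days, was -0.32 (95% interval -0.50 to -0.14), a level 1.25-fold lower. It did not pass after adjustment over 17784 genes (limma, adjusted p = 0.140), though it did with the replicate number as a block. The exact permutation test within days gave p = 0.005, the smallest it can give. How many of all genes separate in this way or reach that p was not counted. At an unadjusted limma p under 0.05, 14.3% of all genes were lower with CAP over both days, and the median log2 difference of all 17784 genes was -0.08.

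Plat varied more. Its sham libraries read 168, 94.8 and 128 TPM at day 3 and 130, 97.7 and 115 TPM at day 6, and its CAP libraries 74.0, 64.9 and 111 TPM at day 3 and 74.7, 60.1 and 105 TPM at day 6. The third CAP library was the highest of its group at both days and fell inside the range of the sham group. Averaged over the days, Plat was 1.51-fold lower with CAP (log2 difference -0.60, SE 0.19, limma adjusted p = 0.166, exact permutation p = 0.025). Within a library the ratio of Plau to Plat had a geometric mean of 0.54 in the sham group and 0.70 with CAP at day 3, and of 0.64 and 0.72 at day 6. The log2 differences of this ratio in the 4 pairwise comparisons ranged from 0.05 to 0.38 (exact permutation p from 0.2 to 0.6), where 3 libraries against 3 cannot give a p below 0.1, so the test could not have passed 0.05.

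Plaur, the cell surface receptor that holds urokinase at the leading edge of cells, was called at neither day. At day 3 the sham libraries read 61.5, 53.0 and 48.3 TPM and the CAP libraries 48.7, 56.5 and 134 TPM. Only CAP replicate 3 stood above the sham group, and the other two lay within its range. At day 6 the sham libraries read 63.6, 85.6 and 71.4 TPM and the CAP libraries 32.4, 20.9 and 69.4 TPM, so that CAP replicates 1 and 2 were below all sham libraries and replicate 3 was again inside their range. The difference between CAP and sham was 0.41 on the log2 scale at day 3 (SE 0.36) and -1.01 at day 6 (SE 0.40). Without CAP Day 3 replicate 3 the day 3 difference was -0.04.

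Serpine2, the serpin known as protease nexin that inhibits urokinase and thrombin at cell surfaces, was the 1 gene of the 9 called between days. In the sham group it read 21.7, 18.5 and 18.5 TPM at day 3 and 39.7, 36.7 and 47.2 TPM at day 6. In CAP-treated wounds it read 19.6, 11.7 and 15.4 TPM at day 3 and 27.1, 16.7 and 26.6 TPM at day 6. All 3 sham libraries at day 6 were above every other library, whereas CAP replicate 2 at day 6 lay within the range of the day 3 libraries. How many of all genes have their highest 3 libraries in that group was not counted.

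Serpinb2, which inhibits the same activators and largely stays inside the cell, had wide sham groups of 364, 242 and 207 TPM at day 3 and 487, 535 and 250 TPM at day 6. Its CAP groups were narrower, with 205, 210 and 221 TPM at day 3 and 288, 381 and 319 TPM at day 6. The CAP libraries of the 2 days did not overlap, and the CAP and sham libraries of each day did.

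F3 varied little between libraries at day 6. The sham libraries read 140, 123 and 99.9 TPM at day 3 and 152, 163 and 161 TPM at day 6. The CAP libraries read 101, 160 and 109 TPM at day 3 and 131, 132 and 135 TPM at day 6, all 3 below the sham group of that day. At day 6 the SD was 5.76 TPM in the sham group and 1.98 TPM in CAP-treated wounds, against 20.1 and 31.7 TPM at day 3.

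The anticoagulants Tfpi and Thbd were not called in any comparison. Tfpi, which blocks the complex of tissue factor and factor VII, read 28.5, 10.9 and 22.8 TPM in the sham group at day 3 and 37.9, 34.2 and 35.9 TPM at day 6. With CAP it read 14.5, 18.8 and 26.6 TPM at day 3 and 22.7, 11.96 and 32.2 TPM at day 6. The sham group at day 6 was above all other libraries, a pattern whose share of all genes was not counted. The ratio of F3 to Tfpi had a geometric mean of 4.41 in that group and 6.24 to 6.44 in the other groups. The exact permutation p was 0.3 against CAP at day 6 and against sham at day 3. That test could not go below 0.1. At day 3 the ratio read 4.91, 11.3 and 4.38 in the sham libraries and 4.1 to 8.5 with CAP. At day 6 it read 4.01, 4.77 and 4.48 in the sham libraries and 5.77, 11.1 and 4.19 with CAP. Leaving out each library in turn, the log2 difference in this ratio ranged from -0.76 to -0.07 between days in the sham group. Between CAP and sham at day 6 it ranged from 0.16 to 0.86. Thbd, the endothelial and keratinocyte thrombin receptor that turns thrombin toward activating protein C, read 81.3, 78.1 and 64.2 TPM in the sham group and 80.6, 99.2 and 85.5 TPM with CAP at day 3. At day 6 it read 79.3, 103 and 56.6 TPM in the sham group and 69.0, 37.9 and 50.9 TPM with CAP, and all 3 CAP libraries were below the CAP libraries of day 3.

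F13a1, which tissue macrophages also express, read 240, 93.4 and 130 TPM in the sham group at day 3 and 268, 238 and 302 TPM at day 6. In CAP-treated wounds it read 159, 175 and 275 TPM at day 3 and 214, 133 and 248 TPM at day 6. The groups overlapped in all 4 pairwise comparisons.

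**Figure D1:**
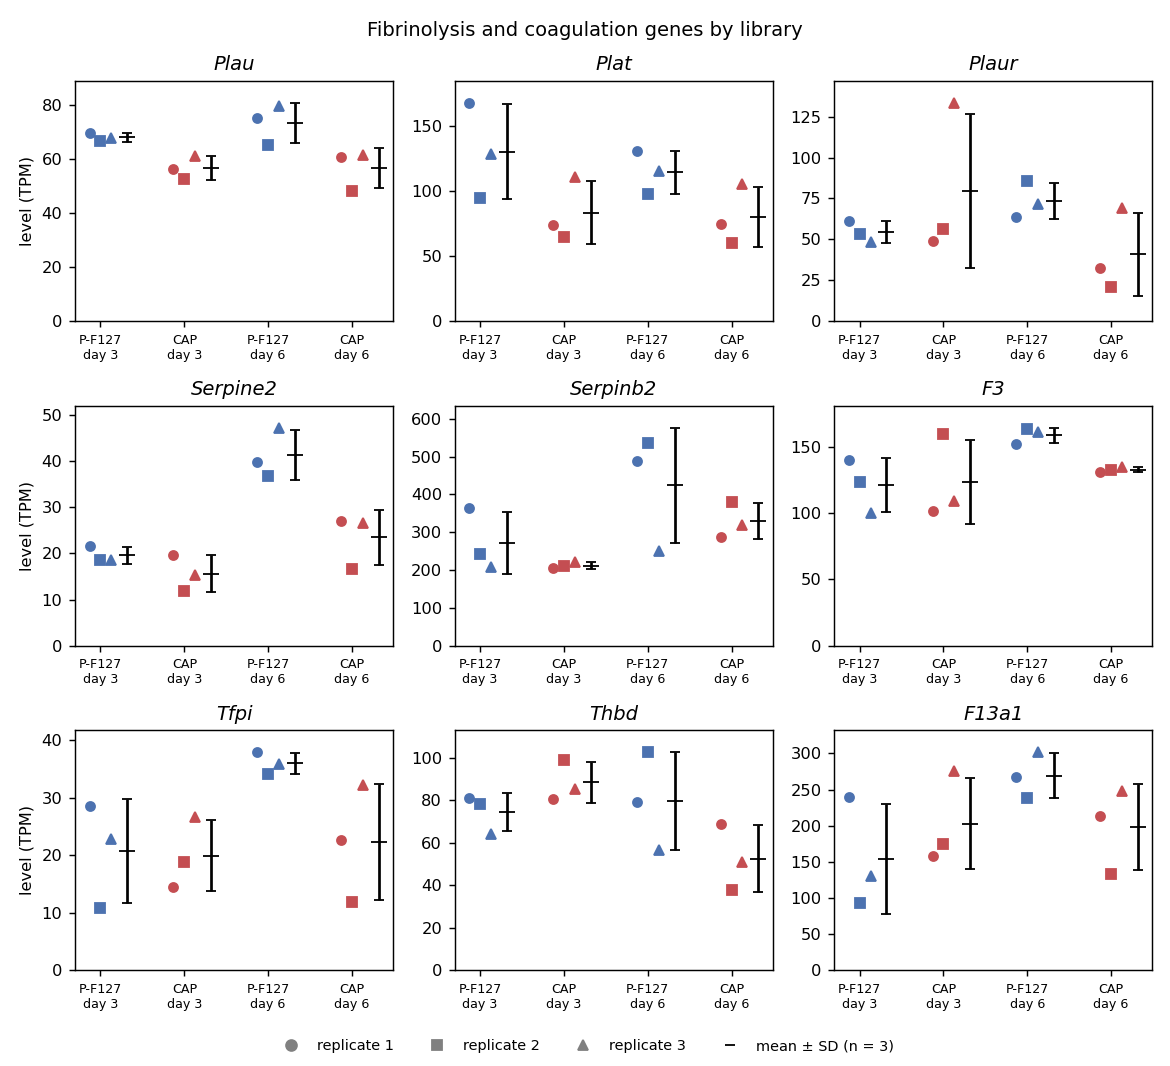
Level of each of the 9 genes (vertical axes, TPM, from 0) in the 12 libraries, with P-F127 in blue and CAP in red, a marker shape for each replicate, and the mean with its SD (n = 3) beside each group. The 6 Plau levels with CAP, 47.9 to 61.3 TPM, lie below the 6 sham levels, 65.1 to 79.7 TPM, and Serpine2 is highest in the sham group at day 6. The share of all genes with either pattern was not counted.

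The first comparison asked what CAP changed at day 3. Of the 9 genes, 5 were higher and 4 lower with CAP, with a median log2 difference of 0.01 against -0.05 over all 18330 genes tested. None of the 9 was called at a limma adjusted p under 0.05, where 0.0164% of all genes were, and 2 (Plau and Plat) were lower at an unadjusted p under 0.05, where 5.14% of all genes were lower. None passed the study's threshold, an unadjusted p under 0.05 with at least a 2-fold change, which 1.58% of all genes passed. The largest differences were -0.65 for Plat (95% interval -1.27 to -0.02) and 0.46 for F13a1 (-0.40 to 1.33). Plau was lower by 0.26 on the log2 scale (95% interval -0.47 to -0.06, limma adjusted p = 0.692) and was the one gene of the 9 whose groups did not overlap, against 8.75% of all genes with that direction. For F3 and Tfpi the difference was 0.01 for both, with 95% intervals of -0.47 to 0.49 and -0.90 to 0.92. Marker lists of several cell types differed between the same groups. Fibroblast markers summed to 15073 to 23305 TPM in the sham group and 10557 to 15895 TPM with CAP, with 7 of 7 lower and 3 of them at an unadjusted p under 0.05. Erythroid markers summed to 280 to 416 TPM in the sham group and 1282 to 1535 TPM with CAP, with 3 of the 3 tested higher and 1 of them called. Platelet markers summed to 254 to 439 TPM and 496 to 547 TPM, with 3 of the 4 tested higher. Skeletal muscle markers were lower in 6 of 6, with sums that overlapped. The part of these markers in the differences of the 9 genes at day 3 was not tested.

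At day 6 all 9 genes were lower with CAP. The median log2 difference was -0.55, while that of all 18323 genes was -0.12, and after scaling each library by the median ratio, which brought the median of all genes to -0.01, the 9 genes were still all lower with a median of -0.43. No gene of the 9, and 0% of all genes, was called by limma at an adjusted p under 0.05. At an unadjusted p under 0.05, 6 of the 9 were lower (Plau, Plat, Plaur, Serpine2, F3 and Tfpi), against 12.5% of all genes. Serpine2 differed most clearly, 1.79-fold lower (log2 difference -0.84, 95% interval -1.33 to -0.34, limma adjusted p = 0.206). Plaur was 2.02-fold lower (-1.01, 95% interval -1.96 to -0.06, limma adjusted p = 0.244) and was the one gene of the 9 past the study's threshold, which 2.34% of all genes passed in that direction. It no longer passed under median-ratio scaling, with no filter, when 1 TPM was added in place of 0.1, or when any library of the comparison other than CAP Day 6 replicate 3 was left out. Tfpi differed by -0.80 (95% interval -1.58 to -0.02), Thbd by -0.60 (-1.26 to 0.06), Plat by -0.55 (-1.05 to -0.04), F13a1 by -0.49 (-1.04 to 0.07), Plau by -0.38 (-0.70 to -0.06), Serpinb2 by -0.30 (-0.98 to 0.39) and F3 by -0.26 (-0.46 to -0.06). In 4 genes (Plau, Serpine2, F3 and Tfpi) the groups did not overlap, as in 18% of all genes with that direction, and 3 libraries against 3 cannot give an exact permutation p below 0.1.

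**Figure D2:**
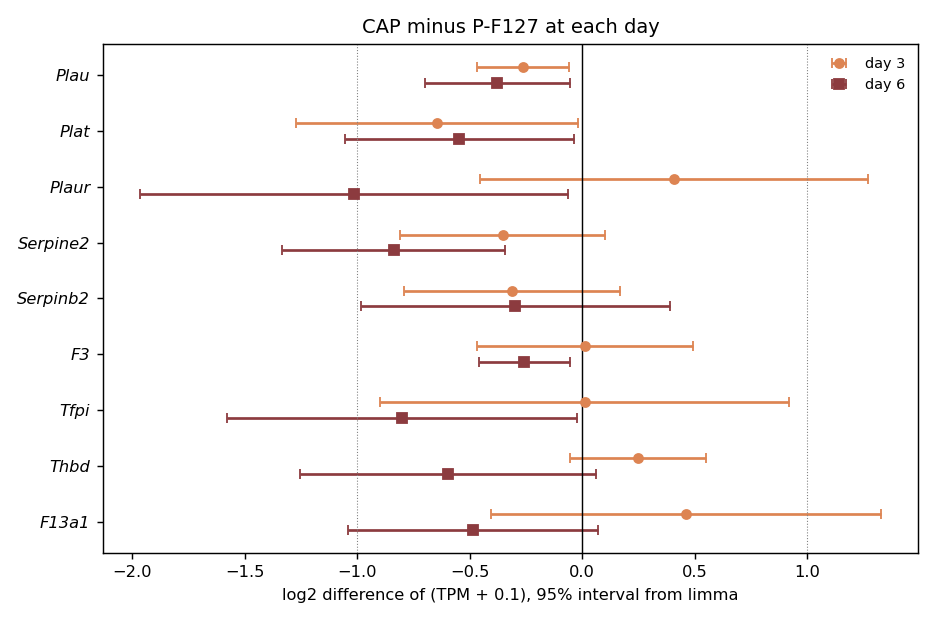
Difference between CAP and P-F127 wounds for each of the 9 genes (horizontal axis, log2 of TPM + 0.1, with the 95% interval from limma), at day 3 as circles and at day 6 as squares, with dotted lines at a 2-fold change. At day 6 all 9 points lie below 0, and those of Plaur, Tfpi, Thbd, F13a1 and F3 lie above 0 at day 3.

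Between CAP and sham at day 6, genes were called only when CAP Day 6 replicate 3 was left out. Without it, 2 of the 9 were called lower, Plaur (log2 difference -1.49, limma adjusted p = 0.031) and Plat (-0.76, limma adjusted p = 0.045), among 519 genes called higher and 911 called lower of 18148. Without CAP Day 6 replicate 2, the library that stood apart in its marker sums, the 9 genes were still all lower, with a median of -0.38. Cell type markers differed between the same groups. Endothelial markers summed to 300 to 404 TPM in the sham group and 92.8 to 256 TPM with CAP, with 8 of 8 lower and 5 of them at an unadjusted p under 0.05. Monocyte and macrophage markers summed to 3114 to 4313 TPM and 1790 to 3455 TPM, with 9 of 9 lower, and fibroblast markers to 19862 to 26615 TPM and 16183 to 21877 TPM, with 5 of 7 lower. Smooth muscle and pericyte markers summed to 331 to 513 TPM and 78.3 to 253 TPM, with 6 of 6 lower, and platelet markers to 145 to 203 TPM and 82.1 to 142 TPM, with all 4 tested lower. Keratinocyte markers were at 31199 to 38375 TPM in the sham group and 47165 to 97485 TPM with CAP, with 6 of 9 higher and 3 lower. Krt1 averaged 5150 and 19616 TPM and Krt10 averaged 7748 and 25778 TPM in the 2 groups, whereas Krt17 averaged 1739 and 1462 TPM. The part of these markers in the differences of the 9 genes was not tested, and in bulk tissue fewer cells of a type and less RNA per cell cannot be told apart.

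**Figure D3:**
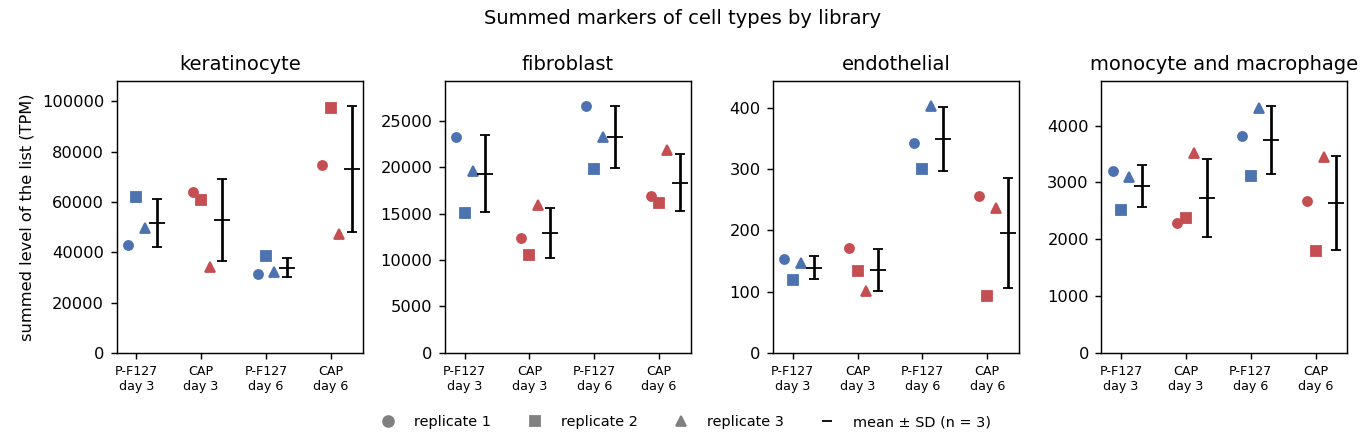
Summed levels (vertical axes, TPM, from 0) of the keratinocyte, fibroblast, endothelial, and monocyte and macrophage marker lists in each of the 12 libraries, with a marker shape for each replicate and the mean with its SD (n = 3). At day 6 the keratinocyte sums of the CAP libraries (47165 to 97485 TPM) lie above those of the sham group, and the endothelial sums (92.8 to 256 TPM) lie below.

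The next comparison followed the sham group from day 3 to day 6. Serpine2 rose 2.09-fold (log2 difference 1.07, SE 0.12, 95% interval 0.78 to 1.35, limma adjusted p = 0.0146), the 53rd smallest p of 18368 genes. It was the only gene of the 9 called, where 1.14% of all genes were called higher, and it also passed the study's threshold, which 2.13% passed in that direction. Serpine2 was no longer called in the joint fit of all 12 libraries (limma adjusted p = 0.12) or without P-F127 Day 3 replicate 2 (0.052) or replicate 3 (0.079), although the difference stayed between 0.96 and 1.14, and it fell under the 2-fold limit without P-F127 Day 6 replicate 3. Of the 9 genes 8 were higher at day 6, with a median of 0.43 against 0.00 over all genes, and in 4 (Plaur, Serpine2, F3 and Tfpi) the days did not overlap, as in 10.8% of all genes with that direction. At an unadjusted p under 0.05, 5 of the 9 were higher, against 8.05% of all genes. Of these, Plaur differed by 0.43 (SE 0.14), F3 by 0.40 (SE 0.13), Tfpi by 0.90 (SE 0.32) and F13a1 by 0.91 (SE 0.31). F13a1 was called without P-F127 Day 3 replicate 1, its highest library of that day (log2 difference 1.28, limma adjusted p = 0.022). That fit called 349 genes higher and 149 lower of 18278, against 210 and 210 of 18368 in the main fit. Plau, Plat and Thbd differed by 0.11, -0.16 and 0.06, with intervals that include 0. Over the same days 7 of the 8 endothelial markers rose by the same test and the list's sum went from 119 to 153 TPM to 300 to 404 TPM. Smooth muscle and pericyte markers were higher in 6 of 6, with 3 called and sums of 146 to 173 TPM at day 3 and 331 to 513 TPM at day 6. The 3 erythroid markers tested were all called higher, with sums of 280 to 416 TPM and 1129 to 3067 TPM. Other lists fell. Keratinocyte markers were lower in 8 of 9, with 1 called and sums of 42872 to 61889 TPM at day 3 and 31199 to 38375 TPM at day 6. Skeletal muscle markers were lower in 6 of 6, with sums of 4005 to 5945 TPM and 2517 to 3663 TPM. Platelet markers were lower in 3 of the 4 tested, with sums of 254 to 439 TPM and 145 to 203 TPM. The part of these markers in the rise of Serpine2 was not tested.

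In CAP-treated wounds no gene of the 9 was called between the days by limma, where 0.00549% of all genes were, and 2 had an unadjusted p under 0.05, where 11.6% of all genes did. Serpinb2 was 1.54-fold higher at day 6 (log2 difference 0.63, SE 0.13, limma adjusted p = 0.295) without overlap, as in 8.05% of all genes. Thbd was 1.72-fold lower (-0.79, SE 0.22, limma adjusted p = 0.319), also without overlap, as in 9.63%. Serpine2 differed by 0.58 (95% interval -0.03 to 1.20), an interval that includes both no change and the size of its rise in the sham group. The median of the 9 genes was -0.01 against -0.05 over all genes.

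**Figure D4:**
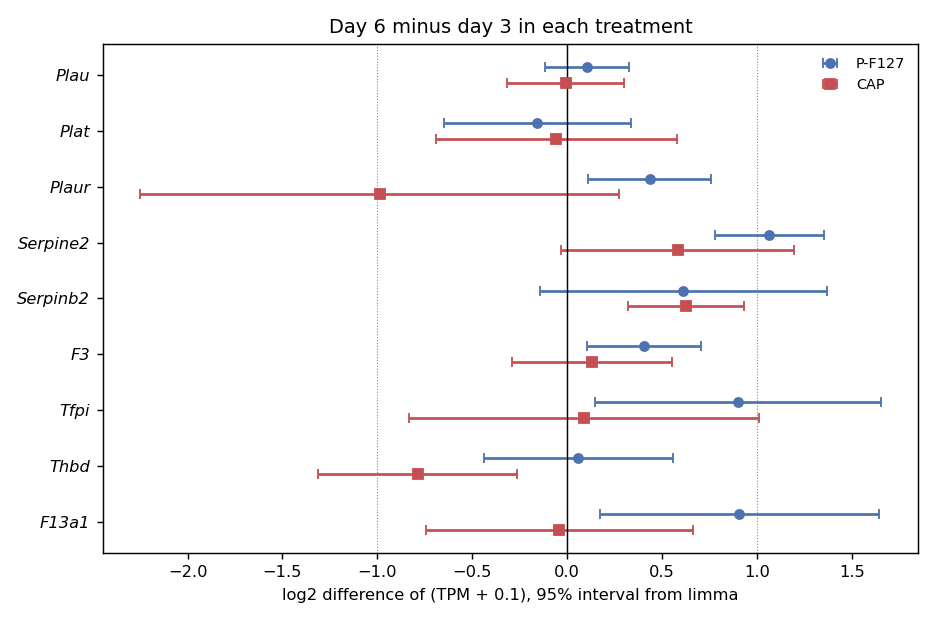
Difference between day 6 and day 3 for each of the 9 genes (horizontal axis, log2 of TPM + 0.1, with the 95% interval from limma), in P-F127 wounds as circles and in CAP-treated wounds as squares, with dotted lines at a 2-fold change. Serpine2 in the sham group is the 1 point whose value, 1.07, passed after adjustment.

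Over both treatments, Serpine2 rose 1.77-fold from day 3 to day 6 (log2 difference 0.82, SE 0.15, limma adjusted p = 0.0346, exact permutation p = 0.01), and it was the 1 gene of the 9 called, where 0.534% of all genes were called higher. This call was lost without a filter on low values (adjusted p = 0.067) and when any library was left out other than CAP Day 3 replicates 1 and 3 and CAP Day 6 replicate 2, while the difference stayed between 0.73 and 0.94. Serpinb2 was 1.54-fold higher (0.62, limma adjusted p = 0.132, exact permutation p = 0.03), with 205 to 364 TPM at day 3 and 250 to 535 TPM at day 6. Over both days no gene of the 9, and 0% of all genes, was called by limma between treatments in the main fit. With the replicate number as a block, Plau and Serpine2 were called lower, among 10 genes called higher and 256 lower. All 9 differences were negative, from -0.60 for Plat to -0.01 for F13a1, except that F13a1 turned to 0.07 with median-ratio scaling and to between 0.03 and 0.18 without P-F127 Day 3 replicate 1, CAP Day 3 replicate 1 or 2, P-F127 Day 6 replicate 3 or CAP Day 6 replicate 2. At an unadjusted p under 0.05, 3 were lower (Plau, Plat and Serpine2), against 14.3% of all genes. Serpine2 was 1.51-fold lower (-0.60, SE 0.15, limma adjusted p = 0.140, exact permutation p = 0.015).

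Whether the CAP difference itself changed between the days was tested for all 9 genes. None was called by limma, and no gene of 17784 was (0%), while 2 of the 9 had an unadjusted p under 0.05, against 5.9% of all genes with that direction. Plaur had a change of -1.42 (95% interval -2.76 to -0.09, limma adjusted p = 0.426) and was the 1 gene of the 9 past the study's threshold, which 2.25% of all genes passed with that direction. It still passed without P-F127 Day 3 replicate 1, CAP Day 3 replicate 1 or 2, P-F127 Day 6 replicate 1 or CAP Day 6 replicate 3, and not without any other library, over a range from -1.89 to -0.97. Thbd had a change of -0.84 (95% interval -1.58 to -0.11, limma adjusted p = 0.424). For Plau (-0.11) and Plat (0.10) the 95% intervals were -0.46 to 0.24 and -0.72 to 0.92, so a change by more than 0.46 on the log2 scale was outside the interval for Plau but not for Plat.

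The wider pathway was examined through 40 further genes of plasminogen activation, its inhibitors, coagulation factors, anticoagulants and thrombin receptors, of which 20 to 22 passed the filter on low values. Plasminogen itself (Plg), which the liver makes, was at the floor value in 10 of the 12 libraries and at no more than 0.037 TPM in the others, and the fibrinogen genes Fga and Fgb and the factor XI gene F11 were at the floor in all 12. Of the 20 genes tested between days in the sham group, 1 was called lower and none higher, where 1.14% of all genes were called in each direction. S100a10, a plasminogen-binding partner of annexin A2, fell from 646 ± 64.3 to 430 ± 17.8 TPM (SD, n = 3, limma log2 difference -0.58, adjusted p = 0.040). This call was lost without the filter, in the joint fit and without any 1 library other than P-F127 Day 3 replicate 1, with limma adjusted p from 0.086 to 0.18 and differences from -0.62 to -0.51. Over both treatments Serping1, the inhibitor of complement C1 and of contact-phase proteases, rose by 0.73 on the log2 scale (limma adjusted p = 0.026), from 385 to 643 TPM at day 3 to 584 to 1184 TPM at day 6. It was the 1 pathway gene of 20 called in that comparison, where 0.534% of all genes were called higher. The Serping1 call was lost without the filter (limma adjusted p = 0.054) and without any 1 of P-F127 Day 3 replicates 1 to 3, CAP Day 3 replicates 1 and 2 and P-F127 Day 6 replicates 1 and 3 (0.052 to 0.075). Vwf, the platelet adhesion protein made by endothelium, was at 7.79 ± 1.87 TPM in the sham group at day 3 and 16.6 ± 3.17 TPM at day 6 (SD, n = 3, log2 difference 1.09, limma adjusted p = 0.057), and F2rl3, a thrombin receptor near the filter, at 0.385 ± 0.154 and 1.06 ± 0.137 TPM.

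The cofactor gene F5 was at 2.32 ± 0.777 TPM in the sham group and 1.01 ± 0.299 TPM with CAP at day 6 (SD, n = 3, log2 difference -1.11, limma adjusted p = 0.216). At day 6, 20 of the 22 pathway genes tested were lower with CAP (median -0.47, against -0.12 over all genes), and none was called. At an unadjusted p under 0.05, 7 were lower, where 12.5% of all genes were, and none was higher. At day 3, 14 of the 20 tested were lower (median -0.20, against -0.05 over all genes), and none was called. At an unadjusted p under 0.05, 4 were lower, where 5.14% of all genes were, and 1 was higher.

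The genes of the tissue factor partner F7 and of F10, the protease they activate, followed Plaur across the libraries. F7 read 51.2, 41.5 and 54.4 TPM in the sham group and 66.0, 113 and 285 TPM with CAP at day 3 (log2 difference 1.40, limma adjusted p = 0.704). At day 6 it read 50.5, 89.4 and 78.3 TPM in the sham group and 18.4, 15.8 and 80.1 TPM with CAP. F10 read 34.9, 18.8 and 27.4 TPM in the sham group and 26.6, 64.3 and 99.0 TPM with CAP at day 3, and 33.8, 62.7 and 42.3 TPM in the sham group and 13.1, 6.87 and 52.6 TPM with CAP at day 6. In all 3 genes CAP replicate 3 was the highest CAP library of its day. On the log2 scale over the 12 libraries, Plaur had a Pearson r of 0.93 with F10 and 0.91 with F7, and the values for deviations from the group means were 0.91 and 0.94. These libraries share their group structure and scaling, so the coefficients are descriptions.

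**Figure D5:**
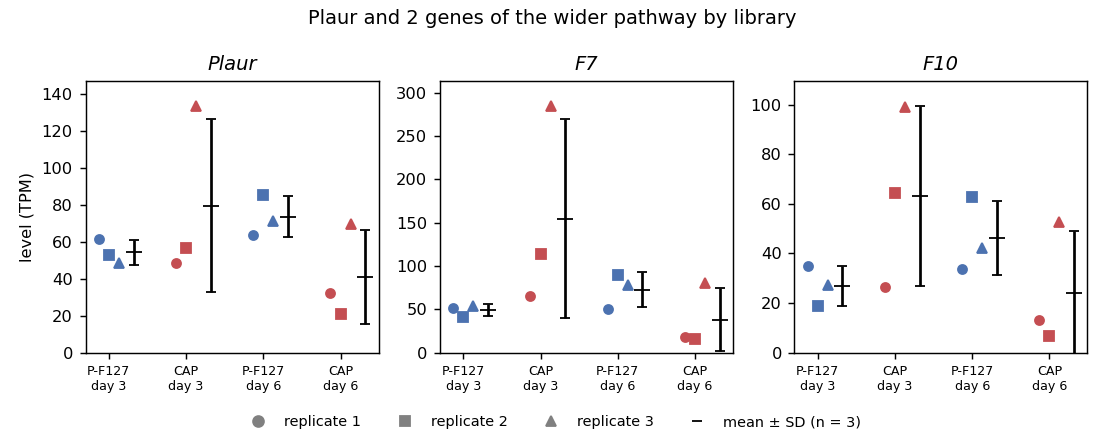
Levels (vertical axes, TPM, from 0) of Plaur, F7 and F10 in each of the 12 libraries, with P-F127 in blue and CAP in red, a marker shape for each replicate, and the mean with its SD (n = 3). The third CAP library (triangle) is the highest of its group for Plaur, F7 and F10 at both days, with Plaur at 134 TPM at day 3 and 69.4 TPM at day 6.

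Among the 9 genes themselves the closest pair was Tfpi and F13a1 (r = 0.89 over 12 libraries), followed by Plau and Plat (r = 0.82) and Plau and Serpine2 (r = 0.72). The 2 serpins, Serpine2 and Serpinb2, had r = 0.56, which became -0.31 for deviations from the group means. For each gene, the 2 highest r were then taken among 13996 genes that averaged 1 TPM or more. These coefficients are picked maxima and serve as descriptions. The highest r with Plau were those of Apbb2 and Dpy19l1 (0.96 for both), with Plat those of Adgrd1 and Gpr135 (0.98 for both), and with Plaur those of Parvb and Gna13 (0.98 for both). Serpine2 was closest to Rasgrp3 (0.98) and Runx1t1 (0.95), and Serpinb2 to Lmo4 (0.91) and Csrnp1 (0.89). F3 had the weakest neighbours, Blcap (0.89) and Prr16 (0.84). Tfpi was closest to the metallothionein genes Mt1 and Mt2 (0.96 for both), Thbd to Tmprss2 (0.94) and Slc7a11 (0.93), and F13a1 to Lrrc58 (0.96) and Wdr41 (0.92).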

How the data were processed

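RNA of 12 wound libraries was sequenced after preparation with the SureSelect XT HS2 mRNA kit. Per the labels, reads were converted with bcl2fastq and trimmed with Trimmomatic 0.36, against mm10, and the authors estimated expression with StringTie. No aligner and no use of strand is named in the sources used here. The deposited values are TPM for 55487 genes per library, with 0.0001 in place of 0, and each library sums to 1000003. No counts were used and depth is unknown.

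The fit used log2(TPM + 0.1), which understates differences of low genes. Genes averaging 0.3 TPM or more in each group compared (in all 4 for contrasts over 12 libraries) were fitted with limma 3.58.1 (R 4.3.3, intensity trend, not robust), two-sided, with Benjamini-Hochberg adjustment over all genes tested. Called means an adjusted p under 0.05. Exact permutation tests were two-sided, over 20 divisions of 3 and 3 or 400 relabellings within the other factor. In all, 7 comparisons were made. The fit was checked on simulated data. Python 3.11.15, numpy 2.4.6, pandas 2.3.3, scipy 1.17.1 and matplotlib 3.10.9 were used for the other steps. Coordinates were those of GENCODE M21 on GRCm38.

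The 9 genes, the pathway and marker lists and the rules were chosen with earlier results of these data known. Pathway genes were named by rule: Plg always, and up to 6 genes per comparison by smallest p among those called or past the study's threshold. Fga, Fgb and F11 are named for description. A further gene of the list is not reported here and was left out of its counts. For each of the 9 genes, the 2 genes with the highest Pearson r are given, leaving out symbols of predicted genes.

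Alternatives were a pseudocount of 1 TPM, no filter, median-ratio scaling, the replicate number as a block, a joint fit of all 12 libraries for the pairwise comparisons, and leaving out each library in turn.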

Additional observations from a re-analysis of the deposited data

Results flagged for a closer look

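The CAP difference changed between day 3 and day 6 at an unadjusted p under 0.05 in 2 of the 9 genes and in 3 of the wider pathway, and limma gave each of the 5 an adjusted p of 0.42 or 0.43. The change was -1.42 on the log2 scale for Plaur, where the difference went from 0.41 at day 3 to -1.01 at day 6. It was -0.84 for Thbd, where it went from 0.25 to -0.60. In the wider pathway the change was -2.7 for F7, -2.48 for F10 and -0.99 for Vwf. F7 and F10 were past the study's threshold, which 2.25% of all genes passed with that direction. Over all 17784 genes tested, 2038 had an unadjusted p under 0.05 and none was called.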

How the results depend on the processing

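Of 288 log2 differences of the 9 genes recomputed under other settings, 282 kept their direction and their side of the threshold. With median-ratio scaling Plau between days with CAP turned to 0.032 and F13a1 between treatments over both days to 0.073. The count of genes past the study's threshold with CAP at day 6 was 0 with a pseudocount of 1 TPM, without a filter and with median-ratio scaling, against 1. The count called in the sham group between days was 0 in the joint fit, which called none of all genes against 420, and the count called between days over both treatments was 0 without a filter.

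Leaving out each library in turn, 495 of 540 log2 differences kept direction and side. The counts called ranged from 0 to 2 with CAP at day 6 and in the sham group between days, and from 0 to 1 between days over both treatments. The counts past the study's threshold ranged from 0 to 2 with CAP at day 6, 0 to 3 in the sham group between days, 0 to 1 between days with CAP and 0 to 2 for the difference between days. Differences that changed sign ranged, with CAP at day 3, from -0.041 to 0.69 for Plaur, -0.19 to 0.14 for F3 and -0.40 to 0.29 for Tfpi. Between days in the sham group they ranged from -0.37 to 0.043 for Plat and -0.15 to 0.28 for Thbd, and between days with CAP from -0.070 to 0.11 for Plau, -0.27 to 0.17 for Plat, -0.23 to 0.48 for Tfpi and -0.23 to 0.22 for F13a1. Over both treatments Plat ranged from -0.22 to 0.0047 between days, and over both days F13a1 from -0.16 to 0.18 with CAP. For the difference between days the range was -0.20 to 0.0015 for Plau, -0.12 to 0.33 for Plat and -0.33 to 0.22 for Serpinb2. The log2 ratio of F3 to Tfpi ranged from -0.25 to 0.43 with CAP at day 3 and -0.35 to 0.35 between days with CAP, and that of Plau to Plat from -0.12 to 0.20 between days with CAP. The causes were not tested.

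Deviations of same-numbered libraries from their group means had r of -0.11 to 0.24, above 0.1 in 2 of 18 pairs. For different-numbered libraries r was -0.26 to 0.18, above 0.1 in 3 of 36 pairs. With 3 libraries a group, these correlations cannot decide whether the numbers pair the samples. With the replicate number as a block, 2 of the 9 genes were called between treatments over both days, Plau (adjusted p = 0.035) and Serpine2 (0.036), among 10 genes called higher and 256 lower, and S100a10 was not called in the sham group between days (0.070).

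With 3 libraries a group and no depth, counting error is unknown, and intervals of the less steady genes span more than a 2-fold range. Median-ratio scaling turned the genes past the study's threshold with CAP at day 6 from 268 higher and 429 lower to 401 and 286.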
